A study of Homo sapiens with 31 samples.

Results

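Untreated tumours of the clone PC3 D3 were compared with untreated tumours of the parental line PC3 from which it derives. PC3 is an established cell line from a human prostate carcinoma. D3 is a clone re-isolated from PC3 tumours after passage in animals, and the labels call it resistant to cyclophosphamide (CPA). The parental line, called wt in the labels, was conditioned in vitro, had not been passaged and is labelled CPA sensitive. The comparison used 4 D3 arrays (replicates 1, 2, 3 and 5) and 4 wt arrays (replicates 1, 2, 3 and 4) of the 31 arrays in the series, over 17314 genes. Both lines were implanted and grown as xenografts to a mean volume of 30 mm3, and neither group received the drug. The further groups used here were untreated tumours of D4 (4 arrays), a passaged clone labelled resistant, untreated tumours of A3 (3 arrays), a passaged clone labelled sensitive, and D3 and wt tumours from animals given CPA intraperitoneally at 120 mg/kg (4 arrays each). D3 is 1 clone, so that clonal selection, passage and resistance cannot be told apart in its difference from wt. The labels do not say that each array held another animal's tumour, and p-values here cover only the variation among these samples, some of which may be technical.

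Type I interferons act through a receptor and a transcription factor complex that binds a short promoter element, and they switch on antiviral genes; many tumour cell lines keep part of this programme on without added interferon. Proliferating cells express DNA replication genes under E2F factors and mitosis genes somewhat later in the cycle. Poor oxygen supply, common in xenografts, stabilises hypoxia-inducible factors, which raise glucose uptake, glycolysis and survival genes. CPA is a prodrug that cytochrome P450 enzymes activate and aldehyde dehydrogenases detoxify; its active form crosslinks DNA.

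Levels are RMA log2 values, on which a difference of 1 is a 2-fold change. They compare one gene between arrays and not one gene with another. A gene was called when its adjusted p in limma was under 0.05 after Benjamini-Hochberg adjustment over all genes, and SE is the standard error from that fit. The untreated D3 arrays correlated with each other at 0.993 to 0.9965 across genes, and the wt arrays at 0.9886 to 0.9949. The wt arrays of replicates 1 and 2 lay farthest from the rest of their group, with root mean square deviations of 0.207 and 0.226 log2 units. The epithelial keratin KRT8 read 9.83 to 10.14 in D3 and 9.79 to 10.21 in wt. The pan-leukocyte gene PTPRC read 3.09 to 3.18 in D3 and 3.08 to 3.43 in wt.

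In untreated tumours 3132 of 17314 genes (18.1%) differed between D3 and wt. Of these, 1677 (9.69% of all genes) were higher in D3 and 1455 (8.4%) were lower. The changes were mostly modest: the median absolute difference of the called genes was 0.39, and the median over all genes was 0.01. Changes of at least 2-fold went mainly downward, with 95 genes lower and 12 higher. In 3832 genes (22.1%) all 4 D3 arrays lay beyond all 4 wt arrays. Without the wt arrays of replicates 1 and 2, a check added after the data were seen, the calls numbered 1638, with 914 higher and 724 lower; 1610 were among the 3132.

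The widest difference was in CP, which encodes ceruloplasmin, the copper-carrying ferroxidase. CP read 6.84, 6.27, 6.15 and 6.29 in the D3 arrays, against 10.08, 9.85, 9.66 and 8.98 in the wt arrays. All D3 arrays were therefore far below the lowest wt array, and the level was 9.57-fold lower (log2 difference -3.26 ± 0.29 SE, adjusted p 5e-09). CP was also far below wt in D4 (-3.93) and A3 (-4.35), comparisons that share the wt arrays. The iron exporter gene SLC40A1, whose product works with ceruloplasmin in releasing iron from cells, was lower in D3 as well (-0.98 ± 0.11 SE). Of 30 measured iron and copper genes 7 were lower (23.3%, against 8.4% of all genes) and 3 higher (10%, near the 9.69% of all genes), with a median of -0.03; without wt replicates 1 and 2 the lower members numbered 2.

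Among the other strongly reduced genes, IFI44L, a gene induced by interferon, read 8.02, 7.33, 7.63 and 7.60 in D3, against 10.57, 10.28, 10.67 and 10.01 in wt. TNFSF10, the death ligand TRAIL, read 5.30, 4.97, 4.84 and 5.10 in D3, against 7.58, 7.55, 7.69 and 6.60 in wt. SPARC, a secreted glycoprotein that binds collagen, read 9.49, 8.95, 9.59 and 9.02 in D3, against 11.40, 11.05, 11.45 and 10.66 in wt. The groups did not overlap in any of the 3 genes, which was a condition for listing them. The lowest wt array in each was replicate 4. The fold reductions were 6.67 for IFI44L, 4.94 for TNFSF10 and 3.67 for SPARC, with adjusted p-values of 9.9e-09, 2e-08 and 1.2e-07. NDRG1, a hypoxia-responsive gene, varied more: it read 10.98, 9.13, 10.08 and 9.46 in D3, against 11.87, 12.14, 11.42 and 11.56 in wt. Its groups did not overlap either, as the same condition required (-1.84 ± 0.37 SE, adjusted p 0.00066). The 15 lowest genes were completed by the interferon-induced SAMD9L (-2.09), DDX60 (-1.89), IFI44 (-1.87), XAF1 (-1.79), IFIH1 (-1.74) and IFIT1 (-1.70), the axonemal dynein DNAH11 (-2.08), the lipid droplet enzyme HSD17B13 (-1.84), FAM177B (-1.78) and the ABC transporter ABCA13 (-1.73).

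The widest increase was in PASD1, a cancer/testis antigen, which read 7.63, 7.83, 7.69 and 7.66 in D3, against 5.54, 5.81, 5.66 and 5.70 in wt. DHRS2, a short-chain dehydrogenase/reductase, read 8.18, 8.33, 8.54 and 8.56 in D3, against 7.07, 6.76, 6.74 and 7.06 in wt. PLAT, the tissue-type plasminogen activator, read 10.62, 10.63, 10.62 and 10.62 in D3, against 9.44, 9.39, 9.47 and 9.39 in wt. The spread within each group was small beside the gap between them. PASD1 was 4.07-fold, DHRS2 2.82-fold and PLAT 2.30-fold higher, with adjusted p-values of 9e-14, 6.7e-11 and 4.9e-11. The next highest were COL12A1, a fibril-associated collagen (1.41 ± 0.12 SE), BEX1 (1.34), RELN, a secreted glycoprotein that steers neuron migration (1.33), STK26, a kinase of the germinal centre family (1.28), and ELOVL2, which elongates polyunsaturated fatty acids (1.13). They were followed by the adhesion molecule NCAM2 (1.13), the annexin ANXA3 (1.07), SERPINB7 (1.06), the splicing regulator MBNL3 (1.05), the pentraxin PTX3 (0.97), the cytokine signalling suppressor SOCS2 (0.97) and the protease inhibitor TFPI2 (0.96).

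**Figure D1:**
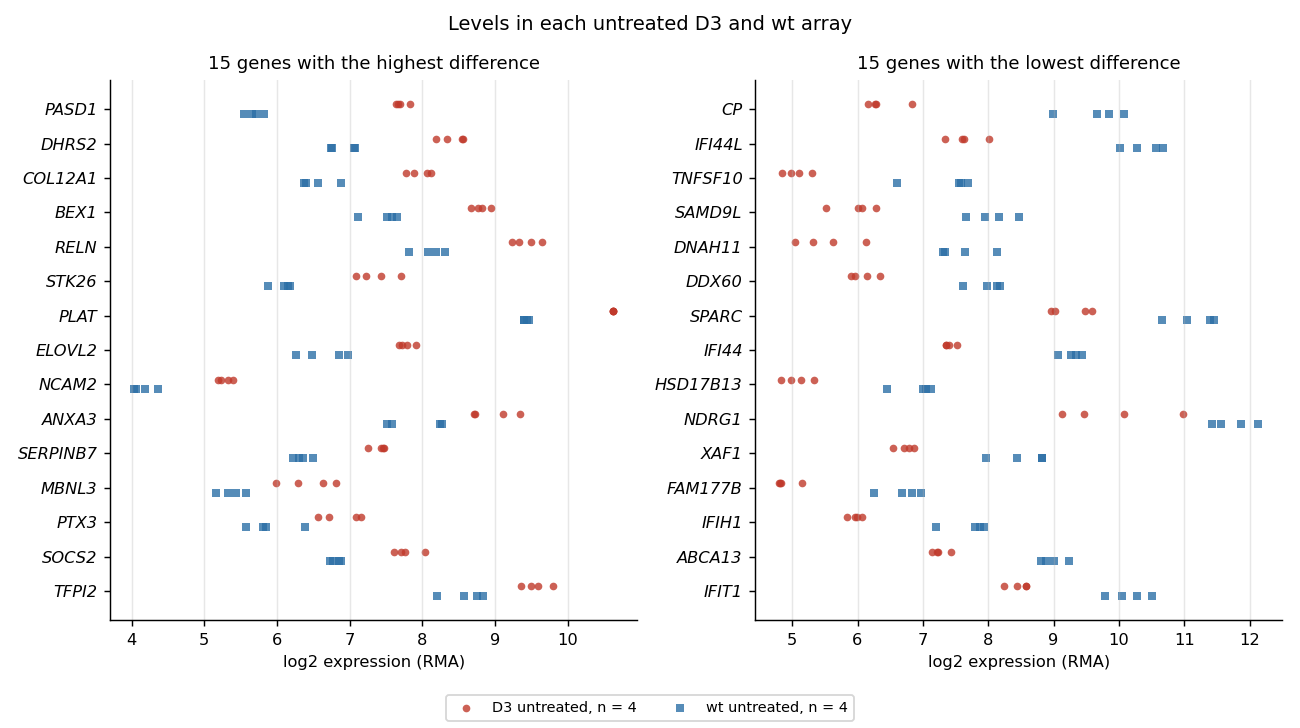
RMA log2 level (x axis) of the 15 most increased and the 15 most decreased genes, 1 point per array, with D3 as circles above wt as squares. No D3 array overlapped a wt array in these genes, which was a condition for listing them. PLAT has the tightest D3 points, at 10.62 to 10.63, and NDRG1 the widest, at 9.13 to 10.98.

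PASD1 and DHRS2 did not separate all clones from wt in the same way. PASD1 differed from wt by 1.83 in D4 and by -0.05 in A3, and D3 exceeded A3 by 2.07 (adjusted p 3.9e-13) and D4 by 0.19 (adjusted p 0.568). DHRS2 differed from wt by 1.83 in D4 and by -0.36 in A3, and D3 exceeded A3 by 1.86 (adjusted p 3.5e-12). TNFSF10, IFI44L and SPARC were below wt in A3 (-2.14, -2.82 and -2.07) and in D4 (-2.04, -2.81 and -1.66) as well. All these differences use the same wt arrays.

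Interferon-induced genes were lower in D3 almost throughout. Of 53 measured members 48 were lower and 0 higher (90.6%, against 8.4% of all genes lower), and 51 of the 53 differences were below 0. The median difference was -0.85, against 0.01 over all genes. The mean level of the list was 7.50 to 7.61 in the D3 arrays and 8.34 to 8.73 in the wt arrays, so the groups lay apart by more than either group's spread. OAS2, which makes the 2-5A messenger that activates RNase L, averaged 7.66 in D3 and 9.30 in wt (-1.63 ± 0.16 SE, adjusted p 3.5e-08). IFIT2, which binds RNA and dampens translation, averaged 6.59 in D3 and 7.97 in wt (-1.38 ± 0.14 SE, adjusted p 2.6e-08). IFIT1, which binds viral RNA caps, read 8.57, 8.24, 8.44 and 8.58 in D3, against 10.27, 10.05, 10.51 and 9.79 in wt. IFIH1, a cytoplasmic sensor of double-stranded RNA, averaged 5.97 in D3 and 7.71 in wt (-1.74 ± 0.18 SE).

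Of 29 measured receptors, ligands, kinases, sensors and regulators of interferon signalling, 3 were lower and 3 higher (10.3% each, close to the 8.4% and 9.69% of all genes), with a median of -0.01. IRF9, the DNA-binding part of the interferon-activated complex, read 8.28, 7.78, 8.23 and 8.04 in D3, against 9.09, 8.97, 9.01 and 8.81 in wt (-0.89 ± 0.12 SE, adjusted p 4.3e-06). SOCS2 was higher, as given among the top genes, and so was CGAS, the cytosolic DNA sensor (0.55 ± 0.13 SE). The lower members numbered 1 without D3 replicate 2. In antigen presentation, 4 of 10 measured class I genes were lower (40%, against 8.4% of all genes). In the other direction 1 was higher (10%, near the 9.69% of all genes), and without wt replicates 1 and 2 the higher members numbered 0. B2M, the light chain of class I molecules, read 10.01, 10.17, 10.13 and 10.18 in D3, against 10.81, 10.95, 10.99 and 10.70 in wt (-0.74 ± 0.11 SE). NLRC5, the transactivator of class I genes, was lower (-0.55 ± 0.12 SE), and so was the peptidase ERAP2 (-0.52 ± 0.12 SE). Of 6 measured APOBEC3 cytidine deaminases 1, APOBEC3B, was higher (16.7%, against 9.69% of all genes). It differed by 0.61 ± 0.12 SE (adjusted p 0.00031), and the other 5 were not called.

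The promoters of the interferon-induced genes are shown for the element named after the response. The list holds known interferon-induced genes, so a high share of the element in it can follow from that choice and is no separate evidence. The interferon-stimulated response element, searched on both strands as GAAA, any 2 bases and GAAA again (TTTC, any 2 bases and TTTC on the other strand), was found in the 250 bases before the start of 24 of 44 matched list members (54.5%). It was present in 333 of 13457 promoters of measured genes (2.47%), in 61 of 1185 promoters of genes lower in D3 (5.15%) and in 23 of 1406 promoters of genes higher in D3 (1.64%). The 61 include the list's own called members with a match, which number 23 of 40. Sequences and coordinates are from RefSeq on GRCh38.p14, written 5′ to 3′ on the strand of the gene, with each match in capitals; overlapping matches in IFIH1 run together.
IFIT1, chr10:89392373-89392622, plus strand: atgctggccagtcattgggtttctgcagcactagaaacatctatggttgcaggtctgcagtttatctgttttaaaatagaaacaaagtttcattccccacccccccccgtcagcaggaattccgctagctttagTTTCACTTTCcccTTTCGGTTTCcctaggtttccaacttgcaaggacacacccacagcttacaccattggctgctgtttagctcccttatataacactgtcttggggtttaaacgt
IFIH1, chr2:162318685-162318934, minus strand: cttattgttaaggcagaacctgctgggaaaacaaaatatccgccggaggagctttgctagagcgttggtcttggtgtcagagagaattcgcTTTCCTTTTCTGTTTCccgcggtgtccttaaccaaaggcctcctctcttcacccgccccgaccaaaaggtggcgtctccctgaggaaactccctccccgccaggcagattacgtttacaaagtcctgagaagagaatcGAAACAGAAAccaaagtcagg
DDX60, chr4:168318753-168319002, minus strand: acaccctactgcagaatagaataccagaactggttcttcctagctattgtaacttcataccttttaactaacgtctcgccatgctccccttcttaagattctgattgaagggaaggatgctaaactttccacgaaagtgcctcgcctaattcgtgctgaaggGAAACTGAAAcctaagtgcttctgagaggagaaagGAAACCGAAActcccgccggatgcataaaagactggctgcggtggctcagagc
The match nearest the start begins 103 bases before it in IFIT1, 21 bases in IFIH1 and 53 bases in DDX60. A match is a description of the letters and not a measured binding site.

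The other passaged clones had low levels of the same list. The list's median difference from wt was -0.88 in D4 and -0.84 in A3, comparisons that use the same wt arrays. Between D3 and A3 directly 1 of the 53 genes was called, near the 2.27% of all genes, and between D3 and D4 0, where 0.323% of all genes were. In CPA-treated tumours 46 of the 53 were lower in D3 than in wt, with a median of -0.93.

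**Figure D2:**
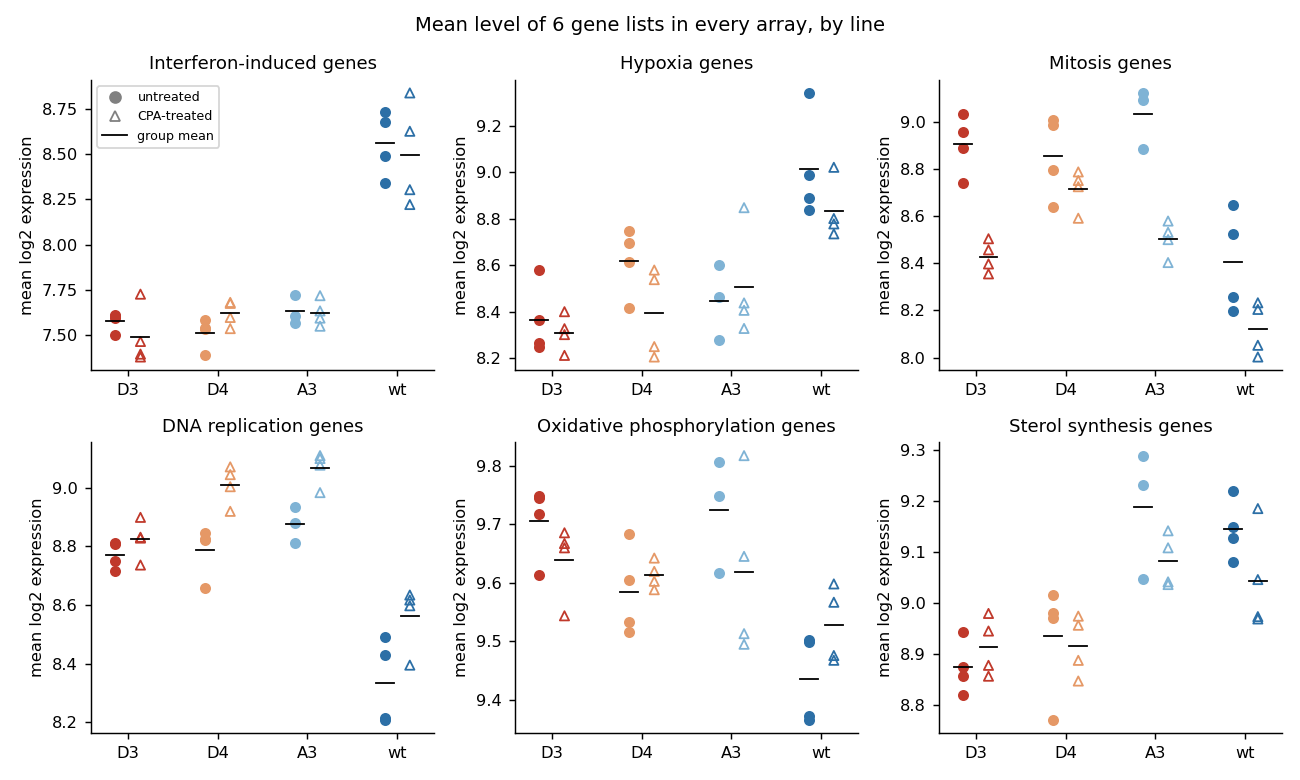
Mean RMA log2 level (y axis) of 6 gene lists in every array, by line, with untreated arrays as circles, CPA-treated arrays as triangles and group means as bars. The interferon-induced list lay at 7.50 to 7.61 in untreated D3 and at 8.34 to 8.73 in untreated wt.

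Cell cycle genes were higher in D3. Of 45 measured DNA replication genes 38 were higher and 0 lower (84.4%, against 9.69% of all genes higher), with a median of 0.46. Of 41 measured mitosis genes 29 were higher and 0 lower (70.7%), with a median of 0.50, and all 41 differences were above 0. PLK1, a kinase that drives entry into and passage through mitosis, read 10.11, 9.91, 10.06 and 9.97 in D3, against 9.08, 9.09, 8.92 and 9.20 in wt. The D3 arrays thus lay above every wt array, by 0.94 ± 0.10 SE on average (adjusted p 6.8e-08). CDC20, an activator of the anaphase-promoting complex, was higher by 0.73 ± 0.09 SE, and the centromeric kinesin KIF2C by 0.75 ± 0.10 SE. GINS4, a subunit of the replicative helicase, read 8.18, 8.35, 8.40 and 8.50 in D3, against 7.57, 7.65, 7.48 and 7.86 in wt (0.72 ± 0.09 SE, adjusted p 1.5e-06). GINS2, another subunit, was higher by 0.74 ± 0.10 SE, and ORC1, which marks replication origins, by 0.73 ± 0.10 SE. UHRF1, which maintains DNA methylation, was higher by 0.62 on the probe set used and by 0.01 on its other probe set (adjusted p 0.975).

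Among 17 measured brakes of the cycle, 5 were lower (29.4%, against 8.4% of all genes) and 2 higher (11.8%, near the 9.69% of all genes). CCNG2, a cyclin of non-dividing cells, averaged 7.71 in D3 and 8.41 in wt (-0.69 ± 0.09 SE, adjusted p 2.8e-06), while RBL1, a pocket protein, averaged 9.28 in D3 and 8.74 in wt (0.54 ± 0.12 SE). The lower members numbered 3 without wt replicate 2 or D3 replicate 1. The higher members numbered 1 without any one of wt replicates 2 and 3 and D3 replicates 1, 2 and 5. The replication list's median difference from wt was 0.46 in D4 and 0.55 in A3, and the mitosis list's was 0.51 in D4 and 0.66 in A3, again with shared wt arrays. Against A3 directly, D3 was lower in 3 of the 45 replication genes, where 0.97% of all genes were, and higher in 0.

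The promoters of these genes are shown for the elements named after the factors of each phase. Here too a high share in a list can follow from the choice of its genes. The E2F element, searched as TTTNNCGC on either strand (GCGNNAAA on the other), was found in 17 of 38 matched replication promoters (44.7%) and in 1040 of 13457 promoters in all (7.73%). The cell cycle homology region, searched as TTTGAA on either strand (TTCAAA on the other), was found in 20 of 36 matched mitosis promoters (55.6%) and in 1386 of all (10.3%). Capitals mark the E2F matches in MCM7 and GINS2 and the TTTGAA matches in PLK1 and CCNB2, on RefSeq GRCh38.p14.
MCM7, chr7:100101398-100101647, minus strand: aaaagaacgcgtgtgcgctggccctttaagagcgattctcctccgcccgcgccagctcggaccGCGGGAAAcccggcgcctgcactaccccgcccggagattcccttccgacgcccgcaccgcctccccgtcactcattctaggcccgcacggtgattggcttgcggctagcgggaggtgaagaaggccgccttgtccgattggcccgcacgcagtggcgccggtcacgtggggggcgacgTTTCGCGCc
GINS2, chr16:85688955-85689204, minus strand: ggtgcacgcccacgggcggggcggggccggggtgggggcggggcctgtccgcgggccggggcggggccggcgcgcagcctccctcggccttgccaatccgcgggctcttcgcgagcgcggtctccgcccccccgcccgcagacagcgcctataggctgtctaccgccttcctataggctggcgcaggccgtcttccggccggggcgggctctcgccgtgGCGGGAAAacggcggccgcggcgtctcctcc
PLK1, chr16:23678639-23678888, plus strand: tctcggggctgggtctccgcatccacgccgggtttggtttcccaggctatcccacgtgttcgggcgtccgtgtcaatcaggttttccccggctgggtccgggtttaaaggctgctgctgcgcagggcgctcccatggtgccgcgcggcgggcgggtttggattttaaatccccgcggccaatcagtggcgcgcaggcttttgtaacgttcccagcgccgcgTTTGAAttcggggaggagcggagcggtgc
CCNB2, chr15:59104896-59105145, plus strand: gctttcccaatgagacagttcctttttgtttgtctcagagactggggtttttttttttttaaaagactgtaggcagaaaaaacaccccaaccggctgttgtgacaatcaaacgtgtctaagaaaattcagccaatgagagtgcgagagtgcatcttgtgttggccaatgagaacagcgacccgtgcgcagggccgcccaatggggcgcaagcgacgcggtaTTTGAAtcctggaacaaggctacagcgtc
Among genes higher in D3, the E2F element was in 155 of 1406 promoters (11%) and the TTTGAA element in 140 (9.96%), the second close to its share of all promoters. The 155 include 14 called members of the replication list, and the 140 include 13 of the mitosis list.

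Hypoxia-responsive genes were lower in D3. Of 28 measured members 20 were lower and 0 higher (71.4%, against 8.4% of all genes), with a median of -0.68. The mean level of the list was 8.25 to 8.58 in D3 and 8.84 to 9.34 in wt. P4HA1, a collagen prolyl hydroxylase, read 11.23, 10.72, 11.01 and 10.64 in D3, against 11.67, 11.90, 11.75 and 11.68 in wt (-0.85 ± 0.11 SE, adjusted p 2.8e-06). The groups did not overlap, and the lowest wt array exceeded the highest D3 array. The histone demethylase KDM3A (-0.92 ± 0.14 SE) and the mitophagy receptor BNIP3L (-0.86 ± 0.13 SE) were lower too. Without wt replicates 1 and 2, 13 of the 28 were called lower. The list's median difference from wt was -0.44 in D4 and -0.61 in A3, with shared wt arrays.

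Of 17 measured glycolysis genes 4 were lower (23.5%, against 8.4% of all genes) and 1 higher (5.88%, against 9.69%), with a median of -0.06. PFKFB4, which makes the fructose 2,6-bisphosphate that speeds glycolysis, averaged 7.71 in D3 and 8.98 in wt (-1.27 ± 0.21 SE, adjusted p 6.9e-05). The aldolase ALDOC averaged 8.22 in D3 and 9.13 in wt (-0.92 ± 0.18 SE). Without wt replicates 1 and 2 the list had 2 lower and 0 higher members. Genes of oxidative phosphorylation went the other way: 10 of 24 were higher (41.7%, against 9.69% of all genes) and 0 lower, with a median of 0.29 and all 24 differences above 0. ATP5F1A, a catalytic-core subunit of ATP synthase, was higher by 0.41 ± 0.06 SE (adjusted p 1.6e-05), and UQCRC1, a core protein of complex III, by 0.55 ± 0.10 SE. Without wt replicates 1 and 2 the higher members numbered 5.

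Lipid synthesis genes were partly lower. Of 19 measured sterol synthesis and regulation genes 6 were lower (31.6%, against 8.4% of all genes) and 0 higher, with a median of -0.18. INSIG2, which holds the sterol sensor in the endoplasmic reticulum and is also on the hypoxia list, read 8.96, 8.62, 8.57 and 8.74 in D3, against 9.68, 10.18, 9.65 and 9.66 in wt. Its difference was -1.07 ± 0.14 SE (adjusted p 3.2e-06). INSIG1, of the same function, was lower (-0.65 ± 0.12 SE), STARD4, a sterol carrier, was lower (-0.77 ± 0.13 SE), and so was HMGCS1, an early enzyme of the pathway (-0.44 ± 0.09 SE). The list's median difference from wt was -0.11 in D4 and 0.10 in A3, and D3 was called lower than A3 in 6 of its 19 members, where 0.97% of all genes were. Of 19 fatty acid synthesis genes 5 were lower (26.3%, against 8.4% of all genes) and 2 higher (10.5%, near the 9.69% of all genes). SCD, the stearoyl-CoA desaturase, differed by -0.79 ± 0.13 SE. The lower members numbered 3 without wt replicate 1, D3 replicate 2 or D3 replicate 5.

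**Figure D3:**
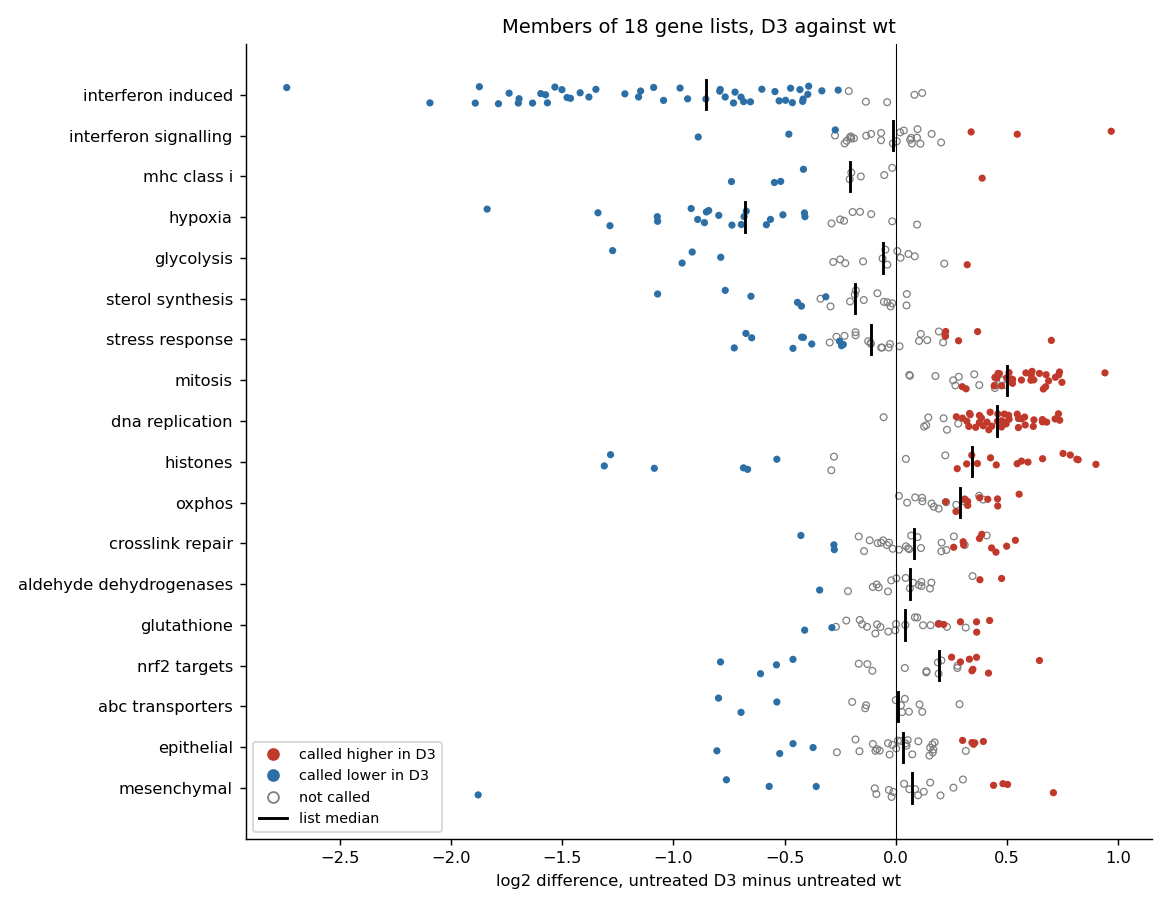
Log2 difference, untreated D3 minus untreated wt (x axis), of every measured member of 18 gene lists (rows), coloured where called, with the list median as a bar. The interferon-induced and hypoxia lists have their medians at -0.85 and -0.68, and the mitosis and replication lists at 0.50 and 0.46.

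Of 19 measured aldehyde dehydrogenases 2 were higher (10.5%) and 1 lower (5.26%), with a median of 0.06, shares close to the 9.69% and 8.4% of all genes. ALDH1B1, a mitochondrial member, averaged 8.90 in D3 and 8.43 in wt (0.48 ± 0.08 SE, adjusted p 0.00012). ALDH1A3 was higher by 0.38 on the probe set used but by 0.03 on its other probe set (adjusted p 0.901). ALDH18A1, of proline synthesis, was lower (-0.34 ± 0.07 SE), and ALDH1A1, linked in other systems to CPA detoxification, averaged 4.61 in D3 and 4.27 in wt and was not called (0.34 ± 0.13 SE, adjusted p 0.0586). The ALDH1A1 difference was called with only the groups compared, array weights, a further quantile normalization or median centring (adjusted p 0.0255 to 0.0454). It was also called without wt replicates 1 and 2 (adjusted p 0.0493). Of 5 measured genes of CPA activation 1 was higher (20%, against 9.69% of all genes) and 0 lower. It was CYP2B6, which hydroxylates CPA in liver (0.41 ± 0.14 SE, adjusted p 0.0402), and its D3 and wt arrays overlapped. That call was lost without any one of wt replicates 1, 3 and 4 and D3 replicates 1 and 3, at adjusted p-values of 0.0554 to 0.217. It was also lost with only the groups compared, array weights or a further quantile normalization (adjusted p 0.0613 to 0.09). POR, the electron donor of P450 enzymes, was not called (0.20 ± 0.11 SE, adjusted p 0.233). Of 34 measured genes of crosslink repair 9 were higher (26.5%, against 9.69% of all genes) and 3 lower (8.82%, against 8.4%), with a median of 0.08. FANCI, a partner in the monoubiquitinated Fanconi complex, was higher by 0.50 ± 0.11 SE, MAD2L2, of translesion synthesis, by 0.45 ± 0.09 SE and FANCE by 0.43 ± 0.08 SE. REV1, a translesion polymerase, was lower (-0.43 ± 0.10 SE); the lower members numbered 1 without wt replicate 2 or D3 replicate 1.

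Of 14 measured ABC transporters linked to drug or lipid export 0 were higher and 3 lower (21.4%, against 8.4% of all genes): ABCA1 (-0.80 ± 0.09 SE), ABCG1 (-0.70 ± 0.10 SE) and ABCC3 (-0.53 ± 0.09 SE), the first 2 of which export cholesterol. ABCA3, which carries lipids in lung cells, was not called (0.29 ± 0.11 SE, adjusted p 0.0611). It was called higher without wt replicate 3 (adjusted p 0.0407) and with the replicate numbers as a block (adjusted p 0.00694). NRF2 target genes moved both ways, with 8 of 23 higher (34.8%, against 9.69% of all genes) and 4 lower (17.4%, against 8.4%). NQO1, a quinone reductase, averaged 9.07 ± 0.08 in D3 and 8.42 ± 0.12 in wt (SD, n = 4 each), without overlap (0.65 ± 0.08 SE, adjusted p 4.8e-07). AKR1C1, AKR1C2 and AKR1C3, aldo-keto reductases, were lower (-0.54, -0.79 and -0.61), and since these genes are near-identical in sequence their separate values are uncertain. Without wt replicates 1 and 2 the higher members of the list numbered 4.

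Surface, matrix and protease genes differed from wt in both directions. CDH1, the epithelial cadherin, read 6.16, 6.13, 6.43 and 6.12 in D3, against 7.29, 7.01, 7.07 and 6.69 in wt (-0.80 ± 0.12 SE, adjusted p 2.3e-05). CDH2, the neural cadherin, read 9.47, 9.54, 9.46 and 9.54 in D3, against 8.69, 8.86, 8.75 and 8.89 in wt (0.71 ± 0.08 SE, adjusted p 1.7e-07). Neither pair of groups overlapped, and the 2 cadherins lay on opposite sides. In their lists 4 of 34 epithelial genes were lower (11.8%) and 5 higher (14.7%), shares near the 8.4% and 9.69% of all genes. Of 22 mesenchymal genes 4 were lower (18.2%), among them SPARC and NT5E (-0.76), and 4 higher (18.2%), among them TNC (0.50). The epithelial lower members numbered 2 without wt replicate 2, and the higher members numbered 2 or 3 without any one of wt replicates 2 and 4 and D3 replicates 3 and 5. The mesenchymal lower members numbered 2 without wt replicate 2 or D3 replicate 2.

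Of 21 measured plasminogen and coagulation genes 3 were higher (14.3%, against 9.69% of all genes) and 4 lower (19%, against 8.4%). PLAT and the inhibitor TFPI2 were among the highest genes of all, whereas PROS1, the anticoagulant protein S (-0.89 ± 0.10 SE), and TFPI, the inhibitor of tissue factor (-0.91 ± 0.15 SE), were lower. Among 29 collagens 5 were higher (17.2%, against 9.69% of all genes) and 6 lower (20.7%, against 8.4%). COL12A1 and COL4A1 (0.57 ± 0.08 SE) were higher, and COL4A5 (-0.87 ± 0.10 SE) and COL5A2 (-0.54 ± 0.07 SE) lower. Among 31 angiogenesis genes 5 were higher (16.1%, against 9.69% of all genes) and 8 lower (25.8%, against 8.4%). ANGPT1, a ligand of the TIE2 receptor, averaged 5.45 in D3 and 6.64 in wt (-1.19 ± 0.15 SE, adjusted p 7.4e-07), and the growth factor PDGFD averaged 5.89 in D3 and 6.80 in wt (-0.91 ± 0.13 SE). The higher angiogenesis members numbered 3 without wt replicate 1 or D3 replicate 2, and NRP2, one of them, was higher by 0.58 on the probe set used and by 0.32 on its other one (adjusted p 0.0644). TSPAN8, a tetraspanin, read 8.10, 8.17, 8.23 and 8.13 in D3, against 9.40, 9.57, 9.65 and 9.41 in wt (-1.35 ± 0.09 SE, adjusted p 7.6e-12), and LGR5, a receptor of intestinal stem cells, differed by -1.02 ± 0.18 SE. They are on the list of 22 stem and progenitor markers, of which 3 were lower (13.6%, against 8.4% of all genes) and 0 higher.

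Of 20 measured growth factor and MAPK output genes 3 were higher (15%, against 9.69% of all genes) and 2 lower (10%, against 8.4%). TGFA, a ligand of the epidermal growth factor receptor, was higher (0.76 ± 0.10 SE), while DUSP6, a phosphatase that ERK signalling induces, was lower (-0.69 ± 0.11 SE). Of 28 BMP pathway genes 6 were lower (21.4%, against 8.4% of all genes) and 3 higher (10.7%, near the 9.69% of all genes). Without wt replicates 1 and 2 the lower BMP members numbered 2. The receptor BMPR1B was lower (-0.77 ± 0.11 SE) and the signal transducer SMAD1 higher (0.50 ± 0.08 SE). Among 34 stress-response genes 10 were lower (29.4%, against 8.4% of all genes) and 6 higher (17.6%, against 9.69%), with the kinase EIF2AK3 (-0.65 ± 0.09 SE) and the chaperone cofactor DNAJB9 (-0.73 ± 0.11 SE) lower and the amino acid transporter SLC7A5 higher (0.70 ± 0.10 SE). The lower stress members numbered 5 without wt replicate 2, and the higher ones 2 or 3 without any one of wt replicates 1 and 2 and D3 replicates 2, 3 and 5. Among p53 target genes, 4 of 22 measured were higher (18.2%, against 9.69% of all genes) and 1 was lower (4.55%, against 8.4%), with a median of 0.01. The lower one was TP53INP1 (-1.09 ± 0.14 SE). The higher p53 targets numbered 1 or 2 without any one of wt replicates 1 and 3 and D3 replicates 1, 2 and 5. Of 15 measured death receptor genes 4 were lower (26.7%, against 8.4% of all genes), among them TNFSF10 and the caspase-8 inhibitor CFLAR (-0.63 ± 0.09 SE). Another 2 were higher (13.3%, against 9.69%), the linker BID (0.38 ± 0.07 SE) and the TRAIL receptor TNFRSF10A (0.33 ± 0.08 SE). The lower members numbered 2 without wt replicate 2, wt replicate 4 or D3 replicate 3.

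In tumour tissue the RNA of host cells can also bind the array, and in bulk samples fewer cells of a type and less RNA per cell cannot be told apart. The array's probes are for human genes, and the labels do not name the host species. How well these probes read host RNA was not tested. Of 15 myeloid, 14 lymphoid and natural killer, 6 erythroid, 10 adipocyte and 9 skin markers measured, 0 were called. That count therefore does not show that D3 and wt tumours held equal amounts of host cells. The mean level of the myeloid markers was 5.32 to 5.38 in D3 and 5.23 to 5.46 in wt, and that of the lymphoid markers 5.14 to 5.28 in D3 and 5.08 to 5.31 in wt. The endothelial markers read 6.19 to 6.32 in D3 and 6.20 to 6.41 in wt, and 1 of 16 was called: KDR, a VEGF receptor, averaged 8.53 in D3 and 9.54 in wt (-1.01 ± 0.13 SE, adjusted p 1.5e-06). The fibroblast and pericyte markers read 6.19 to 6.29 in D3 and 6.16 to 6.23 in wt, with ACTA2 higher (0.58 ± 0.12 SE), COL3A1 lower (-0.61 ± 0.15 SE) and COL1A1 at 0.43 ± 0.15 SE (adjusted p 0.0393). The COL1A1 call was lost without any one of the arrays except wt replicate 4 (adjusted p 0.0558 to 0.142) and with the replicate numbers as a block (adjusted p 0.0752). DCN, the fibroblast proteoglycan decorin, read 3.26 to 3.51 in D3 and 3.36 to 3.55 in wt. The macrophage gene CD68 read 8.57 to 8.68 in D3 and 8.31 to 8.62 in wt. PECAM1, an endothelial adhesion molecule, averaged 6.94 ± 0.08 in D3 and 7.10 ± 0.18 in wt (SD, n = 4 each) and was not called (-0.17 ± 0.09 SE, adjusted p 0.229). The muscle markers read 6.01 to 6.22 in D3 and 5.84 to 6.48 in wt, and TTN alone of 13 was called (-0.80 ± 0.17 SE). The part of host RNA in KDR, the collagens and TTN was not tested.

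Called genes also lay side by side on some chromosomes. Along the order of measured genes, 7 runs held at least 9 of 15 neighbours called in 1 direction. The runs were chosen by that count, so their shares of called genes lie above those of all genes by rule. The longest was on chromosome 16 between CENPT and CALB2, where 33 of 53 genes were higher in D3 (9.69% of all genes were) and the median was 0.32. NOB1, of ribosome assembly, averaged 9.07 ± 0.07 in D3 and 8.35 ± 0.14 in wt (SD, n = 4 each), without overlap (0.72 ± 0.10 SE). The hyaluronan synthase HAS3 (0.49), the amino acid transporter SLC7A6 (0.67), UTP4 (0.65), NIP7 (0.60) and NQO1 lay in the same run. The 1 gene called lower there was CDH1. The median of the run was 0.36 in D4 and 0.12 in A3 against the same wt arrays. Of its 53 genes, 8 were called between D3 and A3, where 2.27% of all genes were, and 0 between D3 and D4, where 0.323% were, and 20 of the 33 were called higher again in CPA-treated tumours.

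A second run, of 33 genes on chromosome 6 between SLC17A4 and H4C8, held 19 higher and 4 lower genes, many of them histone genes. Of all genes 9.69% were higher and 8.4% lower, and the run was chosen for its higher calls. In CPA-treated tumours 8 of the 19 were called higher again. The median of the run was 0.34 in untreated and 0.18 in treated tumours. H3C2 averaged 10.28 ± 0.10 in D3 and 9.38 ± 0.29 in wt (SD, n = 4 each), without overlap (0.90 ± 0.17 SE). H4C8 went the other way, at 9.18, 9.09, 9.31 and 9.19 in D3, against 10.63, 10.72, 10.40 and 10.15 in wt (-1.28 ± 0.13 SE). Over the histone list 15 of 25 members were higher (60%, against 9.69% of all genes) and 6 lower (24%, against 8.4%); H2BC21 (-1.31 ± 0.14 SE) was another of the lower ones. Histone genes are so alike in sequence that probes may bind several of them, which makes the single values uncertain.

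A run of 27 genes on chromosome 5 between HARS2 and ARAP3 held 15 lower genes and 1 higher one, DIAPH1 (0.34), among the lower ones the clustered protocadherins, adhesion proteins of neurons. PCDHB10 read 5.72, 5.50, 5.47 and 5.72 in D3, against 6.80, 7.12, 7.02 and 6.39 in wt (-1.23 ± 0.13 SE, adjusted p 1.4e-07). PCDHB4 (-1.12), PCDHB9 (-1.01), PCDHB14 (-0.82) and PCDHB3 (-0.80) were lower too, with the same caution about near-identical copies. On chromosome 19 a run of 24 genes between FPR2 and ZNF600 held 14 lower genes, all of them zinc finger genes. ZNF841 read 9.05, 9.19, 9.16 and 9.20 in D3, against 10.14, 10.27, 10.15 and 9.98 in wt (-0.98 ± 0.12 SE, adjusted p 7.4e-07). Another run of 20 genes there, between KCNN4 and CEACAM20, held 12 lower genes, such as ZNF226 (-0.63) and the potassium channel KCNN4 (-0.59). Between ZNF345 and SIPA1L3, 10 of 20 were lower, with ZNF527 at -0.49 and ZNF570 at -0.50. In each of the runs on chromosomes 5, 6, 11 and 19, 0 genes were called between D3 and A3 or between D3 and D4, where 2.27% and 0.323% of all genes were; in runs this short no difference from those shares can be read.

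**Figure D4:**
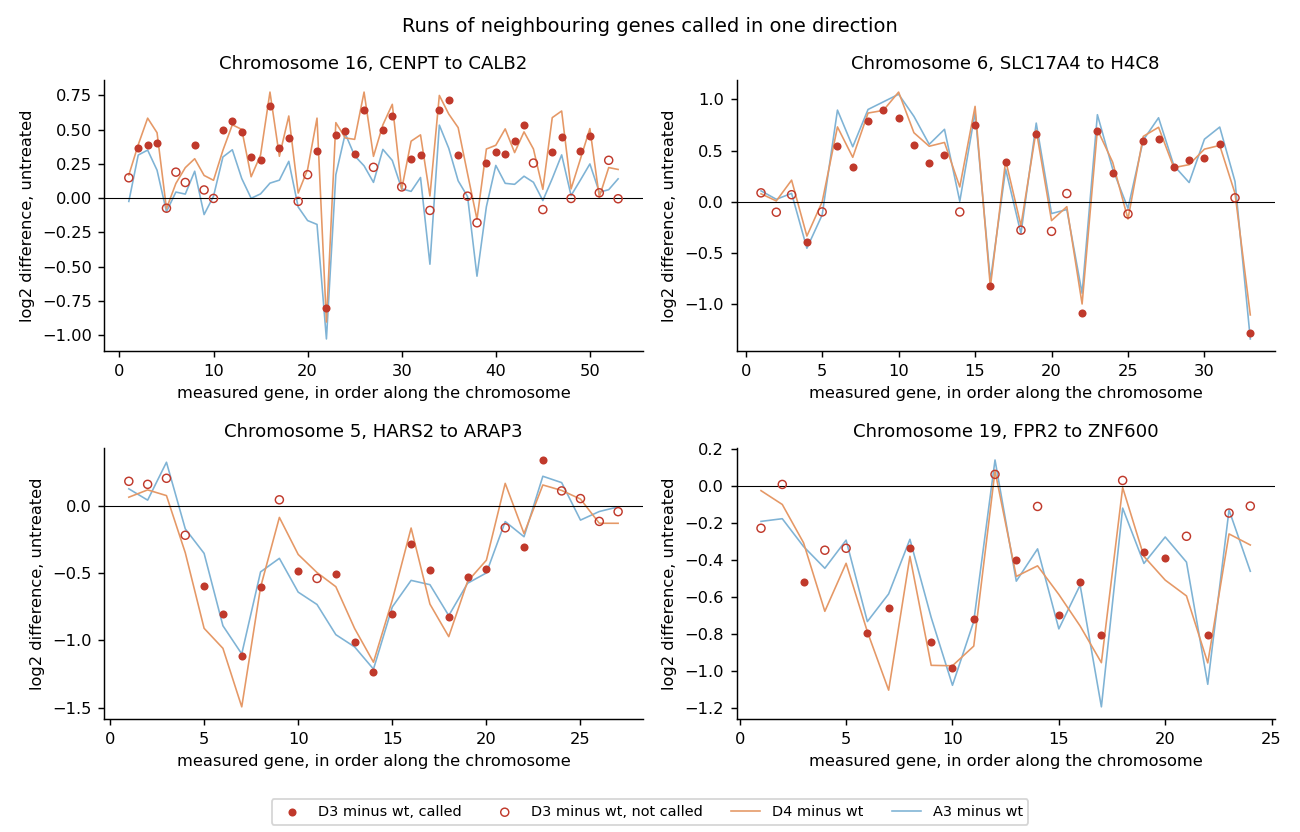
Log2 difference from untreated wt (y axis) of each measured gene in chromosomal order (x axis) in 4 runs of neighbouring genes. Points are D3, filled where called; lines are D4 and A3 against the same wt arrays. On chromosome 16 the medians were 0.32 in D3, 0.36 in D4 and 0.12 in A3.

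The run on chromosome 11, between POU2F3 and BSX, held 9 lower genes of 16, and 3 of them were microRNA genes. Runs were chosen for at least 9 calls among 15 genes, so this share lies above the 8.4% of all genes by rule. The 9 calls are the fewest that the rule admits, and ARHGEF12 (-0.20) is 1 of them. Its call was lost with only the groups compared, the block or median centring (adjusted p 0.0512 to 0.0782). Leaving out any one of wt replicates 2, 3 and 4 and D3 replicates 1, 3 and 5 also ended it (adjusted p 0.069 to 0.096). Whether the run persists in those fits was not tested. UBASH3B in the same run was higher (0.61). MicroRNAs pair through their seed, bases 2 to 8, with target messages and lower their output. The mature sequences are shown, from RefSeq with the seed in capitals, because these genes are transcribed together as a cluster and their seeds differ.
hsa-miR-100-5p: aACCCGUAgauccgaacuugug
hsa-let-7a-5p: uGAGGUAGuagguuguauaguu
hsa-miR-125b-5p: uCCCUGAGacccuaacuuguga
MIR100 read 6.58, 6.81, 6.49 and 6.84 in D3, against 7.50, 7.71, 7.69 and 7.56 in wt (-0.94 ± 0.16 SE, adjusted p 8.2e-05). MIRLET7A2 read 7.72, 8.02, 7.90 and 7.84 in D3, against 8.45, 8.79, 8.71 and 8.79 in wt (-0.81 ± 0.20 SE, adjusted p 0.00444). In both genes every D3 array lay below every wt array. MIR125B1 averaged 6.84 in D3 and 7.31 in wt (-0.47 ± 0.12 SE, adjusted p 0.00412), a call that was lost without wt replicates 1 and 2 (adjusted p 0.0611). Among the neighbours, the sorting receptor SORL1 (-0.53 ± 0.10 SE) and BLID (-0.62 ± 0.12 SE) were lower. The files do not say whether these probe sets read the primary transcript, the hairpin or the mature form.

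Of 150 measured microRNA genes 7 were lower and 2 higher, shares below those of all genes. Besides the chromosome 11 genes, MIR181A2 (-0.60 ± 0.14 SE) and MIR181B2 (-0.50 ± 0.15 SE) were lower. They neighbour each other on chromosome 9, and their mature products share 1 seed, as the letters show.
hsa-miR-181a-5p: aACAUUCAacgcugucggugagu
hsa-miR-181b-5p: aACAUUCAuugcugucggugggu
MIR181A2 read 5.53, 5.62, 5.13 and 5.55 in D3, against 6.01, 6.02, 6.27 and 5.92 in wt, without overlap. MIR194-1 (-0.59) and MIR138-1 (-0.44) were also lower, and MIR29A (0.56) and MIR154 (0.42) were higher. MIR194-1 averaged 2.78 in D3 and 3.37 in wt, and MIR154 averaged 3.10 in D3 and 2.68 in wt. Those levels are low in the range of 1.27 to 14.1 of all values. The MIR29A arrays of D3 and wt overlapped. In treated tumours the differences were 0.12 for MIR194-1, -0.09 for MIR138-1, 0.17 for MIR29A and 0.28 for MIR154, none of them called. Nor were MIR125B1 (-0.22, adjusted p 0.194) and MIR181B2 (-0.41, adjusted p 0.0643) called there. MIR100 (-0.85), MIRLET7A2 (-0.66) and MIR181A2 (-0.81) were called lower in treated tumours as well.

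In CPA-treated tumours the same contrast rested on 8 other arrays, which enter the untreated contrast only through the spread shared in the fit. There 2831 genes (16.4%) passed between D3 and wt, with 1088 (6.28%) higher and 1743 (10.1%) lower. In both comparisons 1714 genes were called in the same direction, 594 higher and 1120 lower, which is 54.7% of the untreated and 60.5% of the treated calls. In opposite directions 0 genes were called. Of the 3132 genes called in untreated tumours, 3045 (97.2%) kept their sign in treated tumours, against 70.5% of all genes. Across genes, which are not independent, the differences correlated at 0.755, and the treated difference of the called genes followed the untreated one with a slope of 0.798. The called genes were chosen by their untreated difference, so this slope does not measure an effect of treatment. The treated count depended on single arrays: it was 1772 without wt replicate 3 of the treated group. The higher genes numbered 551 without that array, 642 without treated wt replicate 2 and 694 without treated D3 replicate 5.

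By adjusted p, the leading genes in treated tumours were again PASD1 (1.71 ± 0.11 SE), PLAT (1.18 ± 0.08 SE), RELN, DHRS2 and COL12A1, all higher. Among lower genes they were TSPAN8 (-1.37 ± 0.09 SE), HERC6 (-1.75 ± 0.15 SE), the mitochondrial carbonic anhydrase CA5B (-0.88 ± 0.08 SE), the keratin KRT20 (-1.64 ± 0.15 SE) and TLR4, a receptor of bacterial lipopolysaccharide (-1.31 ± 0.12 SE). Untreated, HERC6 (-1.48), CA5B (-0.82), KRT20 (-1.48) and TLR4 (-1.16) were lower as well. The medians of the cell cycle lists were closer to 0 in treated than in untreated tumours: 0.33 against 0.50 for mitosis, with 20 of 41 higher, and 0.27 against 0.46 for replication, with 23 of 45 higher. The hypoxia median was -0.49 with 17 of 28 lower. Several other lists had fewer calls in their untreated direction. Of 24 oxidative phosphorylation genes 5 were higher and 1 lower (median 0.11). Of 19 sterol synthesis genes 2 were lower and 0 higher (median -0.07). Of 23 NRF2 targets 3 were higher and 3 lower (median 0.03). Of 25 histone genes 8 were higher and 7 lower (median 0.15). Among all genes in treated tumours 6.28% were higher and 10.1% lower. The change of the difference itself with treatment was called in 0 of 17314 genes by limma, with a smallest adjusted p of 0.733. An unadjusted limma p under 0.05 was reached by 1144 genes, where a share of 0.05 of all genes is expected by chance alone.

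**Figure D5:**
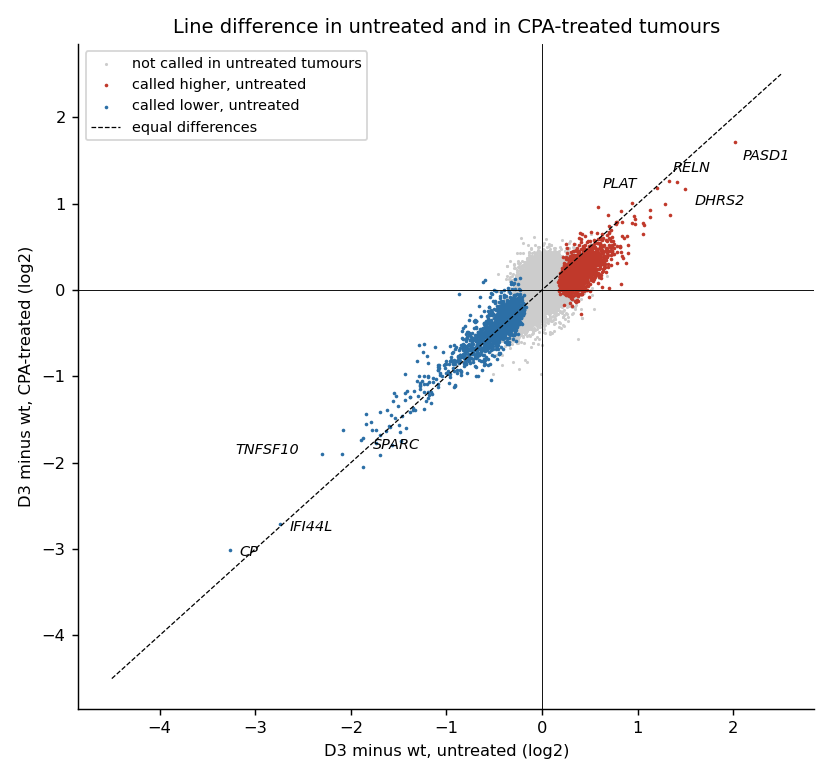
Log2 difference D3 minus wt in CPA-treated tumours (y axis) against the same difference in untreated tumours (x axis), 1 point per gene, coloured where called in untreated tumours; the dashed line marks equal differences. Called genes lie on both sides of 0, with a slope of 0.798 of the treated on the untreated difference. The correlation over all genes was 0.755.

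Fewer genes were called between D3 and the other passaged clones than between D3 and wt. Between untreated D3 and A3, 393 genes (2.27%) passed, 225 (1.3% of all genes) higher in D3 and 168 (0.97%) lower. Between D3 and D4, 56 genes (0.323%) passed, 40 (0.231%) higher in D3 and 16 (0.0924%) lower. The wt arrays do not enter these tests. In their own comparisons with the shared wt arrays, A3 had 3200 calls (18.5%; 10.1% of genes higher, 8.36% lower) and D4 3482 (20.1%; 9.22% higher, 10.9% lower). The count against A3 was 168 to 272 when single arrays were left out, with 168 without A3 replicate 4 and 227 to 256 without any one of D3 replicates 1, 2 and 5 and A3 replicates 1 and 2. The count against D4 was 35 without D3 replicate 2 and 37 without D3 replicate 5.

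Set apart from wt, A3 and D4 at once were 8 genes higher and 1 lower in D3. NCAM2, a neural cell adhesion molecule, read 5.23, 5.33, 5.18 and 5.39 in D3, against 4.03, 4.18, 4.05 and 4.36 in wt. D3 exceeded wt by 1.13, A3 by 0.92 (adjusted p 0.00015) and D4 by 1.01 (adjusted p 2.1e-05). STK26 read 7.22, 7.70, 7.08 and 7.42 in D3, against 5.87, 6.15, 6.10 and 6.18 in wt, and exceeded A3 by 1.40 (adjusted p 1.6e-07) and D4 by 0.61 (adjusted p 0.0219). ESM1, a proteoglycan of endothelium, was higher than in wt by 0.58, than in A3 by 1.22 and than in D4 by 1.11, but its D3 arrays (5.57 to 6.44) and wt arrays (5.15 to 5.83) overlapped. SLC1A3, a glutamate and aspartate transporter, was higher by 0.49 than in wt, by 0.76 than in A3 and by 0.77 than in D4. IGF2BP1, an RNA-binding protein of fetal tissues, read 7.12, 7.05, 7.19 and 7.08 in D3, against 7.98, 7.84, 8.01 and 8.06 in wt. It was lower than in A3 (-0.57, adjusted p 0.00767) and than in D4 (-0.59, adjusted p 0.00697). In treated tumours NCAM2 (0.93), STK26 (0.99), ESM1 (0.66), SLC1A3 (0.29) and IGF2BP1 (-0.75) were again called against wt. In treated tumours NCAM2 averaged 5.08 in D3, 4.48 in D4 and 4.27 in A3, and STK26 averaged 7.19 in D3, 7.04 in D4 and 5.80 in A3. Treated D3 was not tested against treated D4 or A3.

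The other 4 genes of this kind were TCF4, a helix-loop-helix transcription factor (0.39 against wt), DNAJC15, a mitochondrial chaperone cofactor (0.56), the glypican GPC4 (0.28) and RDH10, a retinol dehydrogenase (0.24). DNAJC15 lost its call against wt without wt replicate 3 (adjusted p 0.0502). GPC4 lost it without any one of wt replicates 2 and 3 and D3 replicates 3 and 5 (adjusted p 0.0548 to 0.132), and RDH10 without any one of wt replicates 1, 2 and 3 and D3 replicates 1 and 3 (adjusted p 0.0618 to 0.102). In treated tumours GPC4 was called against wt (adjusted p 0.0362), whereas DNAJC15 (adjusted p 0.0608), TCF4 (adjusted p 0.0807) and RDH10 (adjusted p 0.222) were not.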

How the data were processed

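Total RNA of PC3 xenograft tumours was extracted with Trizol, labelled with biotin and hybridised to Affymetrix Human Gene 1.0 ST arrays, per the labels' protocols and the platform annotation. The authors deposited 1 table of log2 expression values, which the submitters' processing notes credit to RMA, a method that subtracts background, equalises the arrays' distributions and summarises the probes of each set, which can hide differences that move most genes. No RMA version was stated. Across the 31 arrays the deposited log2 values spanned 1.27 to 14.1, with array medians of 6.59 to 6.73. The design text planned 32 arrays; 1 untreated A3 array omitted by the submitters was not analysed here. Of 23989 probe sets, 17624 carried 1 gene symbol, 411 several and 5954 none. For each single-symbol gene, 276 of which had several probe sets, the set of highest mean was used, giving 17314 genes, of which 17290 were matched to RefSeq (GRCh38.p14) for current names and order along chromosomes.

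Groups were compared with limma 3.58.1 in R 4.3.3 (lmFit, eBayes) in 1 fit of 8 group means over 31 arrays, with 23 residual degrees of freedom and Benjamini-Hochberg adjustment over all genes. The median standard error of a difference of 4 against 4 arrays was 0.105. Precision is limited by the number of arrays. The fit was tested on simulated data. The members and the 48 gene lists (1150 genes, 995 of them measured) were chosen with earlier results of these data known. The genes named were the 15 highest and 15 lowest called genes without overlap, up to 4 members of each list by smallest p (called members only for host cells), up to 10 per direction called against wt, A3 and D4, the 5 smallest adjusted p per direction in treated tumours, and up to 8 genes per run of neighbours (windows of 15 measured genes with at least 9 called in 1 direction); some genes outside the rule, such as KRT8, PTPRC and DCN, serve as checks, and the called microRNA genes were named after their values were seen. Promoters were the 250 bases before the most upstream RefSeq start.

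Replicate numbers from the titles are shared between groups. Deviations of same-numbered D3 and wt arrays from their group means correlated at 0.262, 0.408 and 0.155. All lay above 0.1, so a fit with the number as a block was run as the paired alternative. For number 3 another number gave a higher value (0.309), and the labels do not say what same-numbered arrays share. The main fit had no block, and it gave the calls and p-values wherever no other fit is named. No batch or scan date is given by the labels. The alternatives were fits of only the groups compared, the block, a variance trend, array weights, a further quantile normalization, median centring, testing without the dimmest 30% of genes, testing every probe set, omitting each array in turn and, chosen after seeing the data, leaving out wt replicates 1 and 2.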

Additional observations from a re-analysis of the deposited data

Results flagged for a closer look

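Of 90 sets of 4 values examined for 1 array far from the others of its group, 5 showed one, where chance alone gives about 1 in 20. FAM177B read 5.15 in D3 replicate 1, above the other D3 arrays at 4.80 to 4.83. The mean of the interferon-induced list was 7.50 in D3 replicate 2, below the other D3 arrays at 7.59 to 7.61. The mean of the histone list was 8.59 in D3 replicate 1, below the other D3 arrays at 8.69 to 8.70. TCF4 read 7.62 in wt replicate 3, below the other wt arrays at 7.90 to 7.96. TNFSF10 read 6.60 in wt replicate 4, below the other wt arrays at 7.55 to 7.69, and its call against D3 held without that array.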

How the results depend on the processing

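Between untreated D3 and wt, 2861 to 3959 genes were called under the other fits and scalings and 2508 to 2989 when single arrays were left out; without wt replicates 1 and 2, the count was 1638 (914 higher, 724 lower), with fewer arrays in the fit. With the replicate numbers as a block it was 3174 (1800 higher, 1374 lower), of which 2898 were also called without the block. Among the named genes the block ended the calls of ARHGEF12, COL1A1, RPL14 and ZNF585B (adjusted p 0.0512, 0.0752, 0.0726 and 0.0639), added ABCA3, RPS20 and SYP (0.00694, 0.0384 and 0.0224) and changed no other call. Among treated tumours, leaving out single arrays gave 1772 to 2794 calls, 551 to 1073 of them higher, and array weights gave 1756 higher. Between D3 and A3 the count was 105 with only the groups compared, 1207 with array weights and 168 to 272 with single arrays left out. Between D3 and D4 it was 22, 106 and 35 to 63 in the same order. The cause of these moves was not tested, except that fits of fewer arrays have fewer degrees of freedom. The change of the line difference with treatment was called in 0 genes under each alternative run. Of 245 named genes 229 were called; 177 kept the call in every such fit that tested them, 52 lost it in at least 1, and 0 reversed; on other probe sets UHRF1, ALDH1A3 and NRP2 were not called.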
